A study of Thermothelomyces thermophilus ATCC 42464 with 24 samples.

Results

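The 183 genes described here were the late genes of Myceliophthora thermophila in culture on Avicel, a microcrystalline cellulose. They stood low in the wild type (WT) after 2 d and high after 6 d, and they were selected on those measured values among 9110 genes with RNA-seq read counts. Levels are given in CPM, counts per 1000000 counts of a library, and the selection used the means of 2 libraries. A gene had to reach at least 50 CPM in WT at 6 d (4444 genes) and at least 8-fold the 2 d level plus 1 CPM (203 of these). Genes already 8-fold over WT on glucose in WT at 2 d (201 remained without them) or in the Δcre-1 libraries on glucose (185 remained) were not taken. Of the 185 genes, 2 were left out by name, Mycth_98222, a glucose transporter gene, and Mycth_2294559, which is laeA itself. The levels in WT on glucose, in Δcre-1 and in WT at 2 d and 6 d are therefore descriptions that carry no test.

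M. thermophila is a thermophilic filamentous fungus that grows on plant cell wall material. Mycelia of WT and of single deletion strains of laeA (ΔlaeA), of the carbon catabolite repressor (Δcre-1) and of 3 growth regulatory factors (Δgrf-1, Δgrf-2 and Δgrf-3) were grown at 45 °C on 2% glucose for 24 h. WT and ΔlaeA were also grown on 2% Avicel for 2 d, 4 d or 6 d. The study states that the Avicel was used up after 6 d, the day that defines the members. It also reports less Avicel consumed and a later peak of secreted protein in ΔlaeA. Equal days therefore need not be equal stages of the 2 cultures, which was not tested. Every group had 2 libraries, except Δgrf-2 with 1, which gives 23 libraries in 12 groups. The study deleted laeA to ask how its product acts on growth, on cellulase production over time and on secondary metabolism, and of these only RNA levels are examined here.

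A fungus on cellulose first secretes cellulases, whose genes are switched on by transcription factors such as CLR-1, CLR-2 and XlnR and held down by the carbon catabolite repressor CRE-1 while glucose is present. As a culture ages and the accessible substrate runs down, filamentous fungi are known to recycle wall polymers and cell contents, to turn on defence and development, and to make secondary metabolites. LaeA is a nuclear methyltransferase-like protein, first described in Aspergillus as a regulator of secondary metabolite gene clusters and development.

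Library totals ran from 18114947 to 33937501 counts, so a floor of 3 counts stood for 0.0884 to 0.166 CPM, which covers counting error only. The labels number the replicates without naming separate cultures, and p-values cover no more than the scatter of these libraries, which may be technical in any group. Few genes were at least 2-fold apart between the 2 libraries of ΔlaeA, Δgrf-1 and Δcre-1 on glucose (2, 1 and 1). The same holds on Avicel for ΔlaeA at 6 d (7) and WT at 2 d (10). By number of genes at least 2-fold apart in level, the 2 libraries of WT on glucose (310), Δgrf-3 (829) and WT at 4 d (346) stood apart most. Among these genes were 34, 48 and 17 members. The pair of ΔlaeA at 4 d, used in tests below, had 123 such genes but 18 members, and the other pairs had 3 members or fewer. Members were apart more often than genes at large in each of the pairs named. Their shares were 18.6% against 3.74% in WT on glucose, 26.2% against 10.1% in Δgrf-3 and 9.84% against 1.48% in ΔlaeA at 4 d. laeA (Mycth_2294559) had 18.2 and 27.3 CPM in WT on glucose, 9.97 and 9.80 at 2 d, 8.93 and 6.66 at 4 d and 104 and 134 at 6 d, against 279.7 and 274, 237 and 247, 229.7 and 253 and 303 and 326 CPM in the libraries labelled ΔlaeA. The gene thus stood higher in every library labelled as its deletion than in any WT library, against that label, so that the libraries are named below as they are labelled and each direction rests on the labels. On glucose cre-1 (Mycth_2310085) had 1649 and 1713 CPM in the Δcre-1 libraries against 499 and 817 CPM in WT, so the same holds for that name. In their own strains grf-1 (Mycth_37566) had 209 and 205 CPM against 126 and 207 in WT and grf-3 (Mycth_2309668) 92.7 and 70.5 against 70.4 and 59.4, while grf-2 (Mycth_2089183) was lower, with 118 CPM in its 1 library against 207 and 199. From which part of these loci the reads came cannot be seen in a gene count.

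The members took 0.323% and 0.326% of all counts in the 2 WT libraries at 2 d, 6.73% and 5.78% at 4 d, and 12.6% and 12.4% at 6 d. In the libraries labelled ΔlaeA they took 0.280% and 0.328% at 2 d, 1.81% and 1.88% at 4 d, and 8.36% and 8.27% at 6 d. The pairs of libraries of the strains did not overlap at 4 d. The WT libraries at 2 d and 6 d had chosen the members, so the shares at those days are descriptions. On glucose the share was 0.873% and 1.47% in WT, 0.449% and 0.453% in ΔlaeA, and between 0.288% and 0.505% in the 7 libraries of the regulator strains. In bulk mycelium, fewer hyphae of one kind and less RNA of a gene in each hypha cannot be told apart.

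**Figure D1:**
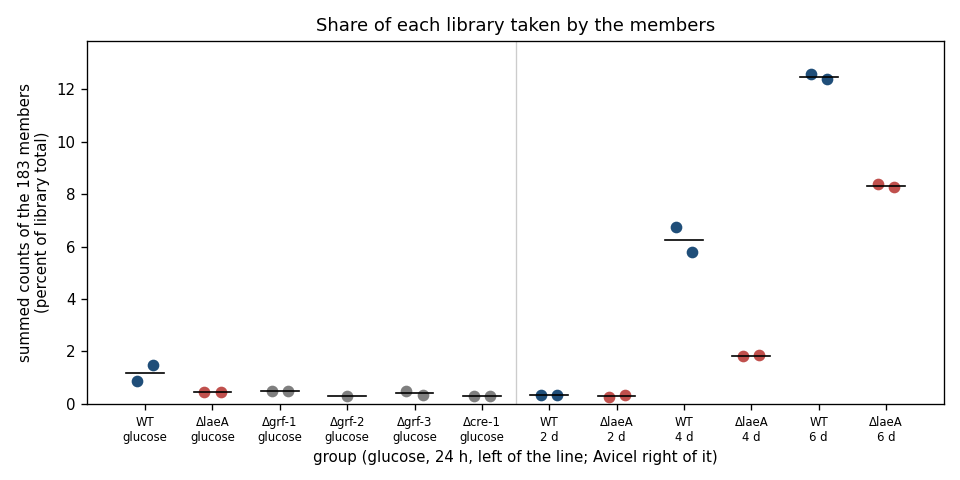
Summed counts of the 183 members as a percentage of the library total (vertical axis) in each of the 12 groups, with 1 point per library and a line at the group mean. Shares lie below 1.5% in all libraries on glucose and at 2 d on Avicel, and reach 12.6% in WT and 8.36% in the libraries labelled ΔlaeA at 6 d.

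Within WT the members did not follow 1 course. The median level was 6.91 CPM at 2 d, 57.9 CPM at 4 d and 248 CPM at 6 d. The mean rose at both steps in 149 members, 23 members were highest at 4 d, and 11 stood lower at 4 d than at 2 d. In 51 members the 4 d level was already at least 50% of that at 6 d, while in 54 members it was under 10% of it. Individual levels at 6 d ran from 50.3 CPM to 13445 CPM, with 29 members at 1000 CPM or more. The name late thus holds against 2 d by construction, but not for every member against 4 d.

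The rise from 2 d to 6 d, which had chosen the members in WT, was tested in the libraries labelled ΔlaeA, none of which entered the selection. There 162 of the 183 members were higher and 7 lower at 6 d than at 2 d (edgeR quasi-likelihood F-test, Benjamini-Hochberg adjusted p below 0.05 over 8827 genes and at least 2-fold), where 17.4% of all genes tested were called higher and 14.9% lower. The median log2 fold change of the members was 4.94, against 0.02 over all genes tested. All 183 members passed the filter on low counts. Leaving out 1 of the 4 libraries at a time gave 159 to 160 members higher.

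The 2 steps of this rise were tested separately. From 2 d to 4 d, 112 members were higher and 4 lower in ΔlaeA (background 13.4% and 10.2% of genes tested), with a median log2 fold change of 1.73. From 4 d to 6 d, 133 were higher and 13 lower (background 12.6% and 13.0%), with a median of 2.68. Both steps were called higher in 83 members, the first alone in 20 and the second alone in 49, while 9 members were higher at 4 d and then lower at 6 d. The count of 4 members lower at 4 d was 1 without replicate 2 of ΔlaeA at 2 d and 2 without replicate 1 at 4 d. For comparison, the median log2 difference of WT, computed on CPM plus 1 and given as a description, was 2.73 for the first step and 2.09 for the second.

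**Figure D2:**
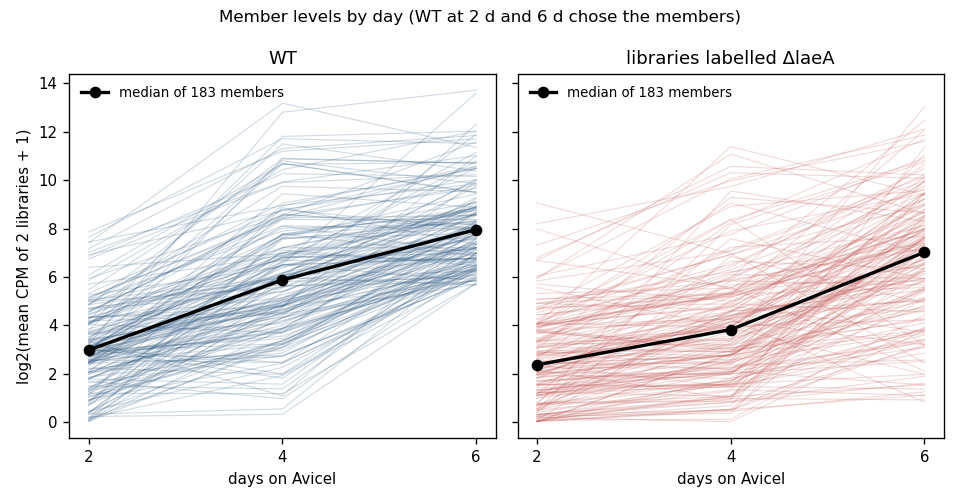
Level of each member by day on Avicel as log2 of the mean CPM of 2 libraries plus 1, in WT (left) and in the libraries labelled ΔlaeA (right), with 1 line per gene and the median of the 183 members in black. The median CPM was 6.91, 57.9 and 248 in WT and 4.19, 13.2 and 129 in ΔlaeA, so that the lines of the right panel stand lower at 4 d.

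The strains were compared at 4 d, the day whose libraries the selection did not use. The members were chosen for high late levels in WT, which can by itself favour a lower level in the other strain. In the libraries labelled ΔlaeA 119 members were lower than in WT and 21 higher (edgeR with Benjamini-Hochberg adjustment), where 9.95% of all genes tested were lower and 9.17% higher. The median log2 fold change was -2.12 for the members and 0.01 over all genes. Of the 119 lower members, 113 were also among those that rose from 2 d to 6 d in ΔlaeA. Without WT replicate 1 at 4 d, 112 members were lower and 19 higher, and without WT replicate 2 the counts were 113 and 22.

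The 119 members that were lower at 4 d had a median of 89.0 CPM in WT and 6.85 CPM in ΔlaeA on that day, and of 262 and 157 CPM at 6 d. At 6 d, where the WT libraries had entered the selection, 64 of these 119 stood within 2-fold of WT, 51 under 50% of it and 4 over 2-fold above it. The 21 members that were higher at 4 d had a median of 12.5 CPM in WT and 99.6 CPM in ΔlaeA, and of 169 and 60.0 CPM at 6 d. Over all members the level in ΔlaeA at 6 d was above that of WT in 39 and more than 8-fold below it in 37, with a median log2 difference of -0.75. Of the 119 members lower at 4 d 26 stood above WT at 6 d, of the 21 higher ones 2 did and of the 43 not called 11 did. Such levels were thus not particular to the members lower at 4 d. A change of order between days shares the WT 6 d libraries with the selection and was not tested.

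**Figure D3:**
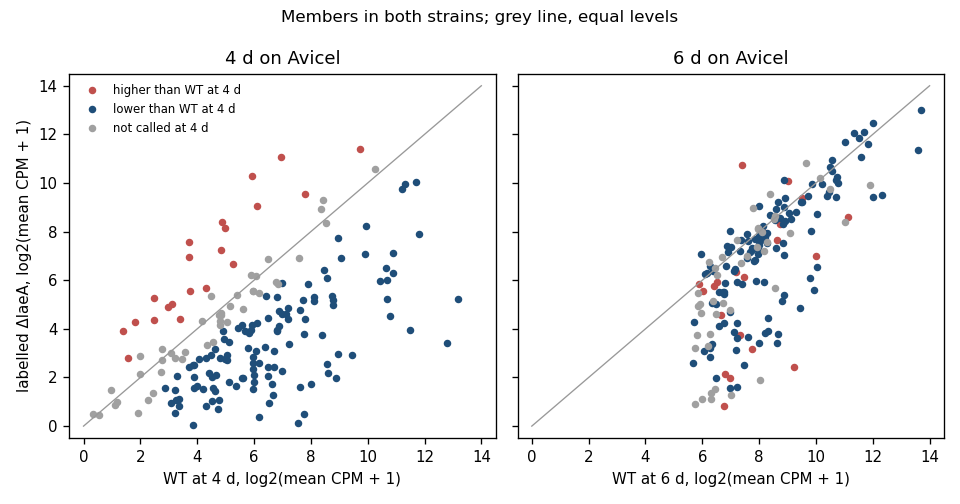
Member levels in WT (horizontal axis) and in the libraries labelled ΔlaeA (vertical axis) at 4 d (left) and 6 d (right), as log2 of the mean CPM of 2 libraries plus 1, with 1 point per gene coloured by its call at 4 d in both panels. The 119 genes that were lower in ΔlaeA at 4 d lie below the line of equal levels on the left, and 26 of them lie above it on the right.

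The most abundant members carried no description in the sources used here. Mycth_50608 had 7.64 and 8.79 CPM in WT at 2 d, 7955 and 6332 at 4 d and 14675 and 12215 at 6 d, and 4.83 and 2.84, 6.64 and 12.5 and 8358 and 8259.9 CPM in ΔlaeA. Mycth_2310279 stood at 60.6 and 124 CPM in WT at 4 d and at 12295 and 12456 at 6 d, against 1.15 and 0.719 and then 2746 and 2517 CPM in ΔlaeA. Both genes therefore gained most of their counts between 4 d and 6 d in ΔlaeA, whereas in WT Mycth_50608 had at least 6332 CPM in both libraries on day 4. Mycth_2063631 went from 22.0 and 29.5 CPM at 4 d to 5213 and 5057 CPM at 6 d in WT, and from 0.853 and 0.360 to 739 and 699 CPM in ΔlaeA. These 3 genes made up 25.6% and 24.0% of the member counts in WT at 6 d and 14.2% and 13.9% in ΔlaeA. Against 2 d they rose in ΔlaeA by log2 11.09 ± 0.61, 11.98 ± 0.63 and 12.63 ± 0.72 (± SE, n = 2 libraries each), and at 4 d they stood below WT with -9.59 ± 0.57, -6.62 ± 0.52 and -5.38 ± 0.54 (all edgeR adjusted p of 2.61e-06 or less).

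Per length, as CPM divided by the recovered gene length in kilobases, Mycth_2063631 (16302) and Mycth_2310279 (15566) stood above Mycth_50608 (10496) in WT at 6 d, and Mycth_2314555 followed at 7204. In ΔlaeA the order was another one, with Mycth_2314555 at 9797, Mycth_50608 at 6486, Mycth_2310279 at 3310 and Mycth_2063631 at 2283 on the same scale. Mycth_2314555 had 3696 and 4618 CPM in WT and 5935 and 5371 CPM in ΔlaeA at 6 d, the reverse order of the strains to that at 4 d (1379.7 and 1386 against 72.0 and 52.9 CPM). Mycth_2307990 was high in WT on glucose (1307 and 1344 CPM), low at 2 d (16.3 and 13.8) and high again at 4 d (4236 and 2915) and 6 d (3253 and 5058). In ΔlaeA it had 217 and 258 CPM at 4 d and 754 and 632 at 6 d. Mycth_2303296 was a member of the last interval, with 51.4 and 71.9 CPM at 4 d and 3859 and 3749.9 CPM at 6 d in WT and 55.7 and 35.5 and then 951 and 978 CPM in ΔlaeA. Its strains did not pass the test at 4 d (log2 -0.45 ± 0.23, edgeR adjusted p = 0.121).

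Among the genes of secondary metabolism, terpenoid synthases build the carbon skeleton of terpenes and cytochromes P450 oxidise such products. The terpenoid synthase gene Mycth_104726 had 12.9 and 14.0 CPM in WT at 2 d, 96.8 and 39.9 at 4 d and 1013 and 1016 at 6 d, against 18.0 and 11.9, 415 and 648 and 121 and 129.6 CPM in ΔlaeA. The P450 gene Mycth_112815 beside it on chromosome 1 had 88.2 and 78.3, 168 and 80.1 and 2274 and 2249.9 CPM in WT and 68.7 and 52.0, 1824 and 2485 and 395 and 385 CPM in ΔlaeA on the same days. This pair thus went against the majority, since it was highest at 4 d in ΔlaeA, above WT by log2 2.93 ± 0.39 and 4.09 ± 0.54 (edgeR adjusted p = 4.98e-05 and 4.81e-05), and highest at 6 d in WT.

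The second P450 gene, Mycth_112051, had 200.1 and 207 CPM in WT on glucose and 164 and 191 at 6 d. It stayed at 2.85 and 2.49, 2.67 and 3.37 and 3.65 and 5.87 CPM in ΔlaeA at the 3 days on Avicel. At 4 d this was below WT (27.2 and 16.6 CPM) by a log2 of -2.88 ± 0.24 (edgeR adjusted p = 1.93e-07), and the gene was not called between 6 d and 2 d (0.84 ± 0.25). Mycth_103096, annotated with a phosphopantetheine attachment site as found in the carrier domains of polyketide and nonribosomal peptide synthetases, had 14.8 and 9.42 CPM in WT at 2 d and 626 and 472 at 6 d. In ΔlaeA its libraries had 243 and 261 CPM at 2 d, 28.6 and 58.8 at 4 d and 232 and 262 at 6 d, so that 2 d and 6 d overlapped in level. Over the whole list of 27 secondary metabolism genes in the held part of the gene sheet 4 were members. Of the 23 others, 22 of them tested, 3 were higher and 4 lower in WT at 6 d than at 2 d (14.5% and 11.6% of all genes tested). In ΔlaeA 7 were higher and 7 lower over that interval (17.4% and 14.9%).

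Transporters carry sugars and other small molecules across membranes. The sugar transporter gene Mycth_108044 was highest at 4 d in WT (192 and 207 CPM at 2 d, 3267 and 3429 at 4 d and 2956 and 2884 at 6 d). In ΔlaeA it rose over all 3 days, with 43.2 and 80.1, 1079 and 1052 and 3623 and 3794 CPM. It was lower than WT at 4 d by log2 -1.68 ± 0.49 (edgeR adjusted p = 0.0139), a call that was lost without replicate 1 (-1.74) or replicate 2 (-1.63) of ΔlaeA at 4 d. Its libraries labelled Δgrf-1 held 0.104 and 0.0465 CPM on glucose, at or under the floor, against 122 and 82.2 CPM in WT. Low levels on glucose were not particular to Δgrf-1. Against 2214 and 1641 counts in WT, the gene had 119 and 145 in ΔlaeA, 46 in Δgrf-2 and 9 and 89 in Δgrf-3. In Δcre-1 it had 1117 and 1011 counts. The major facilitator gene Mycth_116881 had 32.2 and 43.3 CPM in WT and 130.0 and 69.2 CPM in ΔlaeA at 4 d (log2 1.39 ± 0.27, but 0.80 and no longer called without replicate 1 of ΔlaeA). The P-type ATPase gene Mycth_112905, whose kind of protein pumps cations, had 329 and 330.4 CPM in WT and 568 and 399 in ΔlaeA at 4 d, which were not called different (log2 0.53 ± 0.21), and 407 and 255 and 743 and 772 CPM at 6 d.

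The fourth transporter gene, Mycth_107763 of the major facilitator kind, was highest in WT on glucose (580.0 and 1038 CPM), where ΔlaeA had 56.7 and 48.4 CPM. On Avicel it had 213 and 299 CPM in WT at 6 d and 13.2 and 6.19 CPM in ΔlaeA, where it had 1 count over both libraries at 2 d. The ratio of 6 d to 2 d in ΔlaeA was 447, with a 95% counting interval of 79.8 to 17688. All 4 transporter members were called higher at 6 d than at 2 d in ΔlaeA, as were 162 of the 183 members. Of the 51 other genes of the transporter list 11 were higher and 8 lower in ΔlaeA over that interval (17.4% and 14.9% of all genes tested), and 14 were higher and 10 lower in WT (14.5% and 11.6%).

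Of the 26 members with an informative description, 5 were on the list of secreted hydrolases. The exo-beta-1,3-glucanase gene Mycth_102522, whose kind of enzyme cleaves the beta-1,3-glucan of fungal walls, had 16.4 and 19.3 CPM in WT at 2 d, 3256 and 2522 at 4 d and 1307 and 1352 at 6 d. In ΔlaeA the same gene had 7.25 and 7.52, 15.5 and 13.5 and 673 and 742 CPM. WT was thus highest at 4 d and ΔlaeA at 6 d, and at 4 d the strains differed by a log2 of -7.66 ± 0.35 (edgeR adjusted p = 2.33e-10). The lipase gene Mycth_100838 behaved alike, with 712 and 673 CPM in WT and 6.31 and 6.88 CPM in ΔlaeA at 4 d (log2 -6.74 ± 0.18) and 465 and 471 and 123 and 135 CPM at 6 d. Mycth_114497, annotated as a beta-galactosidase or glucuronidase, is not on that list. It had 1791 and 1508 CPM in WT against 53.6 and 72.4 CPM in ΔlaeA at 4 d (log2 -4.74 ± 0.26). At 6 d it had 656 and 793 against 594 and 584 CPM, where the strains lay close together.

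The gene of a glycoside hydrolase of family 71, a family of alpha-1,3-glucanases, Mycth_140261, reached 1034 and 723 CPM in WT and 71.9 and 62.5 CPM in ΔlaeA at 6 d, after 400.3 and 277 and 12.2 and 12.3 CPM at 4 d (log2 -4.81 ± 0.34). The family 16 gene Mycth_2062055, of a family that acts on beta-1,3 linked glucans among others, was the exception, with 3.37 and 5.69 CPM in WT and 19.3 and 19.8 CPM in ΔlaeA at 4 d (log2 2.06 ± 0.42, edgeR adjusted p = 0.00136). Of the 5 members on the list of secreted hydrolases 4 were lower and 1 higher than WT at 4 d, and all 5 rose from 2 d to 6 d in ΔlaeA. The 5 members had been taken from that list for their rise in WT, and of the 56 genes left 6 were higher and 33 lower in WT at 6 d than at 2 d, where 14.5% of all genes tested were called higher and 11.6% lower. At 4 d 14 of the 56 were higher in ΔlaeA than in WT and 5 lower. The fifth member of the list, the peptidase-like gene Mycth_2085328, stood close to the level threshold of the selection, and its calls ended when single libraries were left out.

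Several members are annotated for signalling, protein turnover or defence. Mycth_112362 carries a domain of regulators of G protein signalling and had 1121 and 1627 CPM in WT on glucose, the highest levels of the gene in any library, against 3.53 and 5.73 CPM at 2 d and 495 and 453 at 6 d. In ΔlaeA it had 134 and 169 CPM on glucose and 41.5 and 39.9 at 6 d. At 4 d it stood at 0.223 and 4.41 CPM there and at 135 and 59.0 in WT (log2 -5.48 ± 0.86, and -8.74 without replicate 2 of ΔlaeA). Mycth_2020741, with a BTB/POZ domain that joins proteins to each other, went from 3 counts over both ΔlaeA libraries at 2 d to 30.6 and 32.6 CPM at 4 d and 271 and 237 at 6 d, where WT had 303 and 261 CPM. At 4 d it was higher in ΔlaeA than in WT (5.70 and 9.64 CPM) by a log2 of 2.00 ± 0.40 (edgeR adjusted p = 0.00134). Mycth_2069178, with a RING domain of ubiquitin ligases, was also higher at 4 d (log2 1.08 ± 0.33), a call lost without WT replicate 1 (1.09) or replicate 2 (1.06) and without replicate 1 of ΔlaeA (0.25).

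The protein kinase-like gene Mycth_2078222 barely moved in ΔlaeA, with 28.8 and 22.9 CPM at 2 d, 27.6 and 29.9 at 4 d and 22.7 and 22.4 at 6 d (log2 -0.18 ± 0.21, not called), while WT went from 3.84 and 3.40 to 91.4 and 108 CPM. Mycth_108493, related to a necrosis inducing factor, a kind of small secreted protein known from plant pathogens, had 441 and 331 CPM in WT and 2.86 and 4.23 CPM in ΔlaeA at 4 d (log2 -6.80 ± 0.58). By 6 d its libraries had 264 and 242 and 204 and 188 CPM. The gene of an extracellular membrane protein with an 8-cysteine region, Mycth_100541, remained low in ΔlaeA at 6 d, with 10.8 and 8.72 CPM against 301 and 487 in WT. Mycth_2057017, annotated as an erythromycin esterase, rose from 1 count over both ΔlaeA libraries at 2 d to 163 and 146 CPM at 6 d, where WT had 324 and 173 CPM.

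Among metabolic enzymes, the pyridine nucleotide-disulphide oxidoreductase gene Mycth_112714 had 258 and 258 CPM in WT on glucose, 283 and 145 at 4 d and 341 and 286 at 6 d. In ΔlaeA it had 2 counts over both libraries at 2 d, 0.185 and 0.674 CPM at 4 d and 13.7 and 14.5 at 6 d, a log2 of -9.03 ± 0.54 against WT at 4 d (edgeR adjusted p = 4.14e-08). The PfkB-type carbohydrate kinase gene Mycth_2064976 was likewise lower at 4 d (3.67 and 2.25 CPM against 59.4 and 36.6 in WT, log2 -4.02 ± 0.40). The xylose isomerase-like gene Mycth_2057317 did not differ beyond its error at 4 d (log2 -0.06 ± 0.40), with 5.79 and 5.48 CPM in ΔlaeA and 4.26 and 7.19 in WT.

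The largest rises from 2 d to 6 d in ΔlaeA were those of genes with almost no counts at 2 d. Mycth_2065222 had 1 count over both libraries at 2 d, 7.75 and 4.50 CPM at 4 d and 683 and 656 CPM at 6 d, above the 455 and 509.6 CPM of WT. Mycth_2311266 also had 1 count at 2 d and reached 2.11 and 2.20 CPM at 4 d and 329 and 307 at 6 d, against 395 and 509 in WT. The ratios of summed counts per total were 30841 for the first (95% counting interval 5535 to 1218199) and 14644 for the second (2628 to 578431). In all, 11 members had 3 counts or fewer over both ΔlaeA libraries at 2 d, and their fitted fold changes depend on the prior count.

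Of the 4 genes lowest against WT at 4 d, Mycth_50608 kept 6.64 and 12.5 CPM in ΔlaeA and the 3 others were under 1 CPM. Mycth_2126295 had 184 and 192 CPM in WT and 0 and 0.180 CPM in ΔlaeA at 4 d, and 285 and 342 and 20.6 and 20.6 CPM at 6 d. Mycth_2120499 had 724 counts in WT and 1 in ΔlaeA over both libraries at 4 d, a ratio of 634 with an interval of 113 to 25064, and then 451 and 364 against 10.5 and 15.4 CPM at 6 d. The largest excess over WT at 4 d was that of Mycth_97899 (38.9 and 81.3 CPM in WT, 1232 and 1297 in ΔlaeA, log2 4.37 ± 0.35). This gene was above WT in ΔlaeA in every condition, with 148 and 132 against 12.5 and 7.11 CPM on glucose, 111 and 109 against 17.4 and 15.4 at 2 d and 1099 and 1049.8 against 467 and 561 at 6 d. After it and the P450 gene Mycth_112815 came Mycth_2308031 with 231 and 148 CPM in ΔlaeA and 16.1 and 8.28 in WT at 4 d (log2 3.95 ± 0.37), and fell behind WT at 6 d (63.2 and 56.9 against 107 and 72.7 CPM). Chosen after their values were seen, 2 genes led the members at 4 d. Mycth_2306588 had 10616 and 7917 CPM in WT and 40.3 and 33.8 in ΔlaeA at 4 d, while Mycth_2302526 had 2458 and 2897 CPM in ΔlaeA and 710.0 and 1005 in WT.

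**Figure D4:**
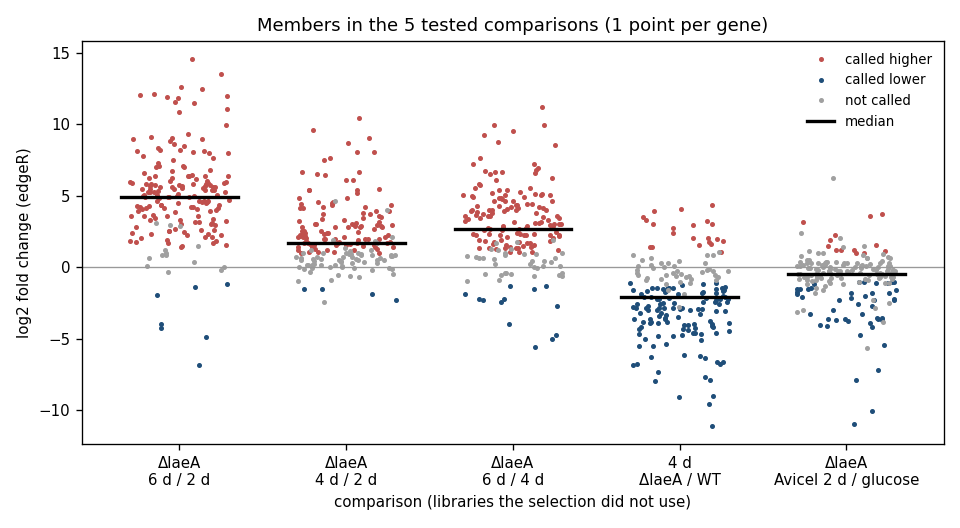
Log2 fold change (edgeR) of each of the 183 members in the 5 comparisons that used no library of the selection, coloured by call, with a line at the median. The medians are 4.94, 1.73, 2.68, -2.12 and -0.49 from left to right, and the 7 members called lower between 6 d and 2 d in ΔlaeA are the lowest points of the first column.

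Against their rise in WT, 7 members (3.83%) were called lower at 6 d than at 2 d in ΔlaeA, where 14.9% of all genes tested were. Of the 183 members 173 had a log2 fold change above 0 there. Mycth_2307942 had 17.8 and 13.3 CPM in WT at 2 d and 716 and 482 at 6 d, while ΔlaeA had 337 and 728 at 2 d, 37.4 and 212 at 4 d and 5.08 and 3.85 at 6 d. Its neighbour Mycth_2307937 had 6.40 and 5.05 and 127 and 91.5 CPM in WT at 2 d and 6 d, and 70.2 and 134, 17.1 and 76.4 and 2.83 and 3.89 CPM in ΔlaeA. Both fell from 2 d to 6 d in ΔlaeA, with log2 -6.87 ± 0.86 and -4.90 ± 0.58 (edgeR adjusted p = 2.43e-05 and 6.72e-06). At 4 d they were above WT by 3.31 ± 0.73 and 1.85 ± 0.50, but by 1.64 and 0.45 without replicate 2 of ΔlaeA, where both calls ended. Mycth_85902 showed another form, since it had 21.6 and 14.7 CPM at 2 d, 278 and 386 at 4 d and 7.10 and 9.12 at 6 d in ΔlaeA, against 16.9 and 39.6 at 4 d and 209 and 224 at 6 d in WT. Its fall from 2 d to 6 d (log2 -1.15 ± 0.38) was lost without replicate 1 of ΔlaeA at 2 d (-0.82) or at 6 d (-0.98). The other 4 were Mycth_2309690, Mycth_103124, Mycth_2058462 and, named after its values were seen, Mycth_2300071, with 0.349 to 3.03 CPM in ΔlaeA at 6 d and 46.1 to 143 CPM in WT.

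Growth on glucose was not uniformly low for the members. By the mean of the 2 WT libraries on glucose, 37 of the 183 stood at 50 CPM or more, 99 under 10 CPM and 20 under 1 CPM. By the same means 12 were higher there than in WT at 6 d. These include the 6 neighbours on chromosome 2 described below, whose sum was 305 and 4629 CPM on glucose and 460 and 686 CPM at 6 d. For that run the higher mean thus rests on 1 library. The same library raised 2 others of the 12, named after their values were seen. Mycth_2309486 had 1354 and 8459 counts in WT on glucose, and Mycth_81817 had 632 and 10822. Of the 37 genes, 14 stood under 10% of the WT glucose level in ΔlaeA on glucose, 20 in Δgrf-1, 16 in the 1 library of Δgrf-2, 20 in Δgrf-3 and 19 in Δcre-1. These values share the WT glucose libraries with the selection and with each other and carry no test. The share over all genes at such a level was not computed, so the counts are not read as a trait of the members. The 37 include the run on chromosome 2, whose WT mean was raised by 1 library. Of the same 37 genes, 28 rose from 2 d to 6 d in ΔlaeA, and the 7 members that fell were all among the 146 others, of which 134 rose. Of the 6 genes of the run only 1 rose, and Mycth_2309486 and Mycth_81817 were not called. This split used WT glucose means that had entered the selection, and it was not tested. No share of all genes at such a level stands beside it. Over all members the median level on glucose was 8.43 CPM in WT, 6.45 in ΔlaeA, 4.72 to 5.09 in the 3 grf strains and 2.84 in Δcre-1.

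Between glucose and the first sample on Avicel, the libraries labelled ΔlaeA allowed a test. The members were chosen for low levels in WT at 2 d, also relative to glucose. This can by itself favour a lower level at 2 d in ΔlaeA. From glucose to 2 d on Avicel 13 members were higher and 47 lower (edgeR with Benjamini-Hochberg adjustment), where 5.19% of all genes tested were higher and 6.76% lower, and the median log2 fold change was -0.49. The lower calls included 16 of the 37 members with 50 CPM or more in WT on glucose and 31 of the 146 others. The split by WT glucose level was again not tested. The count of 13 was 7 and 5 without replicate 1 or 2 of ΔlaeA on glucose and 8 without replicate 2 at 2 d. The largest level on glucose in ΔlaeA was that of Mycth_2306025, named after its values were seen, with 707 and 819.7 CPM there, 102 and 64.4 in WT on glucose and 0.518 and 1.01 in ΔlaeA at 2 d. At 6 d this gene had 200.1 and 318 CPM in WT and only 3.03 and 2.46 in ΔlaeA.

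Position in the genome was not part of the selection. In the gene order of the reference assembly ASM22609v1, all 183 members were placed, on all 7 chromosomes, and 41 of them (22.4%) had another member as direct neighbour. Over all placed genes 3.86% had a member as neighbour, and 2.01% were members. With at most 1 other gene allowed in between, 17 runs were found, of which 4 held at least 3 members and 15 members together. Neighbours can share reads where they overlap, since the strand setting of the counting is not given in the sources used here.

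The longest run held 6 members on chromosome 2, in the order Mycth_2133773, Mycth_78019, Mycth_106502, Mycth_78013, Mycth_114667 and Mycth_114666. Of these, Mycth_114666 is annotated as an alcohol dehydrogenase and Mycth_106502 as calycin-like, a fold that binds small ligands. Summed over the run, the level was 305 and 4629 CPM in the 2 libraries of WT on glucose, which thus stood apart, and 460 and 686 CPM in WT at 6 d. WT had 11.4 and 15.9 CPM at 2 d and 62.8 and 37.7 CPM at 4 d. In the libraries labelled ΔlaeA the run stayed between 5.29 and 17.3 CPM on glucose and at all days on Avicel, and in the other strains on glucose between 6.19 and 13.9 CPM. Without the run the members took 0.843% and 1.01% of the WT glucose libraries.

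Single genes of this run showed the same pattern. Mycth_106502 had 51.9 and 798 CPM in WT on glucose, 11.8 and 6.78 at 4 d and 108 and 187 at 6 d, and 0.480 and 0.566, 0.297 and 1.26 and 2.17 and 1.94 CPM in ΔlaeA. Mycth_114667 had 63.2 and 841, 2.51 and 3.12 and 50.1 and 76.3 CPM in WT and 1.65 and 2.08, 0.0371 and 0.854 and 1.28 and 1.07 CPM in ΔlaeA. None of the 6 reached a mean of 10 CPM in ΔlaeA at any day. From 2 d to 6 d in ΔlaeA only Mycth_114666 was called higher (log2 5.29 ± 2.14, 2 counts over both libraries at 2 d), a call lost without each of the 4 libraries in turn, with a value of 8.35 without replicate 2 at 2 d. At 4 d, Mycth_106502 (-3.65 ± 1.09) and Mycth_78019 (-2.92 ± 1.00) were called lower than WT. Both calls ended without WT replicate 1 (-3.21 and -2.24) and without replicate 1 of ΔlaeA (-2.94 and -2.41), and that of Mycth_78019 also without its replicate 2 (-3.74).

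**Figure D5:**
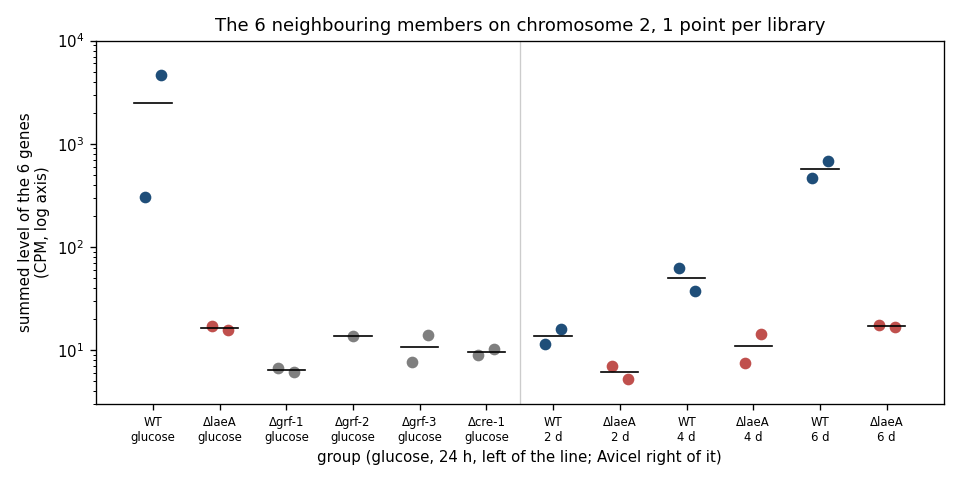
Summed level in CPM (log axis) of the 6 neighbouring members on chromosome 2 in each of the 12 groups, with 1 point per library and a line at the group mean. The WT libraries on glucose (305 and 4629 CPM) and at 6 d (460 and 686 CPM) stand above every library of the other strains, which lie at 17.3 CPM or below.

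The 3 other runs of at least 3 members were called higher at 6 d than at 2 d in ΔlaeA and lower than WT at 4 d for each of their 9 genes. On chromosome 1, Mycth_2299804, Mycth_2299806 and Mycth_73236 were high in WT on glucose too. Mycth_73236 had 517 and 864 CPM there, 0.582 and 1.06 at 2 d and 805 and 577 at 6 d, against 8.96 and 8.16, 0.345 and 0.306 and 30.9 and 24.3 CPM in ΔlaeA. The second run on chromosome 1, Mycth_2142698, Mycth_2124694 and Mycth_2299868, had levels at 4 d and 6 d that overlapped in WT. Mycth_2142698 had 259.6 and 258 and then 211 and 373 CPM in WT, and 2.23 and 2.47 and 13.9 and 12.8 CPM in ΔlaeA. On chromosome 6, Mycth_2311072, Mycth_38939 and Mycth_2311075 rose late in both strains. Mycth_38939 had 13.3 and 14.3 CPM at 4 d and 361 and 259.9 at 6 d in WT, and 4.64 and 4.68 and 189 and 181 CPM in ΔlaeA (log2 5.57 ± 0.19 from 2 d to 6 d, edgeR adjusted p = 6.20e-12).

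Other genes of the pathways around cellulose use were counted beside the members in WT from 2 d to 6 d, where 14.5% of all genes tested were higher and 11.6% lower. Of 7 cellulase regulators, none a member, 3 were lower, the activators clr-2 (Mycth_38704, log2 -4.79 ± 0.50) and xlnR (Mycth_2310145, -4.43 ± 0.40) and hac1 (Mycth_2310995, -1.87 ± 0.24) of the unfolded protein response. In the same interval amyR (Mycth_2301920, 1.28 ± 0.16), named for the regulator of starch-degrading enzymes, and the orthologue of the Neurospora gene NCU10006 (Mycth_90344, 1.30 ± 0.27) were higher. In ΔlaeA xlnR fell by a smaller value (-2.33 ± 0.36) and clr-2 was not called (-0.42 ± 0.42), a difference between the strains that was not tested. The amino acid permease genes Mycth_2308145 (2.82 ± 0.26) and Mycth_2299723 (2.77 ± 0.37) were the 2 of 5 on their list that were higher in WT (all these WT calls at an edgeR adjusted p of 0.00100 or less). Mycth_2308145 went the other way in ΔlaeA (-2.74 ± 0.26).

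The lists by description came from the held part of the gene sheet. Of 32 transcription factor genes none was a member, and 5 were higher and 1 lower in WT. None of 17 stress and detoxification genes was a member, and 1 was higher and 7 lower. The 2 gluconeogenesis genes, pck (Mycth_2315623, 0.06 ± 0.46) and fbp1 (Mycth_2306943, -0.04 ± 0.46), were not called in WT. In ΔlaeA pck was lower at 6 d than at 2 d (-2.99 ± 0.49, edgeR adjusted p = 0.000127). Over the sheet's 1266 genes 38 were members, so that most members carry no description here.

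At the edge of the selection, values differed little between genes inside and outside it. Just inside the 8-fold threshold, Mycth_2303559, Mycth_2064976 and Mycth_2307186 stood at 8.10-, 8.14- and 8.18-fold over the 2 d level plus 1 CPM, and just outside it Mycth_2307949, Mycth_2306248 and Mycth_2300995 at 7.97-, 7.87- and 7.87-fold. Just inside the level threshold were Mycth_2299868 (50.3 CPM in WT at 6 d), Mycth_2085328 (51.1 CPM) and Mycth_2058462 (52.4 CPM), and just outside it Mycth_2300073 (49.2 CPM), Mycth_2299284 (49.0 CPM) and Mycth_75334 (48.7 CPM).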

How the data were processed

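The authors mapped the reads to the species' genome, counted those on unique exons and deposited the raw counts per gene as 1 table. The submitters' processing notes name TopHat2 2.0.8b and HTSeq 0.5.4p2, while the study's methods give another HTSeq version. The genome build was not given in the sources used here, nor was strandedness. Whole counts existed for 23 of the 24 titled libraries. The column titled as replicate 1 of Δgrf-2 holds RPKM that the authors computed from the Δgrf-1 counts (8865 of 8865 genes gave a whole gene length to within 0.01 base), and it served only to recover lengths. The table gave 9110 genes, and 2 lines naming none were skipped.

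All 23 libraries were fitted together in edgeR 4.0.16 (R 4.3.3), with 1 coefficient per group, TMM scaling, filterByExpr and the robust quasi-likelihood F-test, with 8827 genes tested and 11 degrees of freedom for the residuals. A call needed at least 2-fold change and an adjusted p (Benjamini-Hochberg) under 0.05. Totals of 18114947 to 33937501 counts set the precision, with a floor of 3 counts. Intervals of ratios were exact for the counts (95%). On simulated counts for the comparison of 6 d with 2 d in ΔlaeA the fit was tested before use. The members and gene lists were chosen with earlier results of these data known. The selection and every level printed use library totals, the tests TMM.

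Genes were named by rule: up to 25 members with an informative description in the held part of the study's gene sheet (1266 genes, 38 members, 26 with such a description), the 6 highest in WT at 6 d, the 4 highest and 4 lowest log2 fold changes in ΔlaeA 6 d against 2 d and in ΔlaeA against WT at 4 d, members of runs of at least 3, and the 3 genes on either side of each threshold, and, off the list of members, genes given by ID in the study's text. Where a gene was named outside this rule, the text says so. Gene IDs matched the reference assembly ASM22609v1 for 9087 genes, used for names and gene order only. As alternatives, the counts were scaled by RLE or by totals alone, fitted with DESeq2 1.42.0, left unfiltered, fitted on fewer libraries or with a replicate block, and refitted without each library. The crossed block and the block for WT were added after the data were seen.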

Additional observations from a re-analysis of the deposited data

Results flagged for a closer look

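In 9 members both libraries labelled ΔlaeA at 6 d stood below both at 2 d, while both WT libraries at 6 d stood above both at 2 d, a rise for which the members had been selected. The difference between the strains was not tested, because WT at 2 d and 6 d chose the members. The share of all genes with such separate libraries was not counted. The log2 fold changes in ΔlaeA from 2 d to 6 d (edgeR) were -6.87 for Mycth_2307942, -4.90 for Mycth_2307937, -4.25 for Mycth_2309690 and -3.95 for Mycth_103124. They were -1.92 for Mycth_2058462, -1.36 for Mycth_2300071 and -1.15 for Mycth_85902, the last of which lost its call without 1 of 2 libraries. These 7 (3.83% of the members) were called lower, where 14.9% of all genes tested were. Mycth_80274 (-0.30) and Mycth_2078222 (-0.18) were not called. Mycth_2300071 and Mycth_80274 were named after their values were seen. Mycth_2309690 had 15.2 and 15.1 CPM at 2 d, 14.3 and 22.3 at 4 d and 0.349 and 1.23 at 6 d in ΔlaeA, against 7.21 and 7.38, 1.21 and 3.86 and 111 and 103 CPM in WT. Mycth_103124 had 38.9 and 54.2, 10.1 and 17.7 and 3.03 and 2.89 CPM in ΔlaeA on these days and 2.29 and 1.36, 0.943 and 2.27 and 143 and 106 CPM in WT. Groups of 2 libraries are too small for a search for single deviating samples.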

How the results depend on the processing

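The counts of members called kept their direction under every alternative run, and 124 of 129 alternative counts stayed within 1.5 times the value reported. Leaving out 1 library at a time gave 159 to 160 members higher and 5 to 7 lower from 2 d to 6 d in ΔlaeA, 98 to 104 and 1 to 4 from 2 d to 4 d, 128 to 132 and 11 to 14 from 4 d to 6 d, 19 to 22 higher and 110 to 114 lower than WT at 4 d, and 5 to 10 higher and 38 to 40 lower from glucose to 2 d. The selection itself gave 179 to 183 members without 1 library, of which 172 to 183 were among the 183 (174 of 182 and 172 of 179 without replicate 1 or 2 of WT at 6 d), and 158 with TMM-scaled totals, all among the 183. DESeq2 called 164 members higher and 7 lower from 2 d to 6 d in ΔlaeA and 22 and 119 at 4 d against WT. Scaled by library totals only, the median of all genes moved to -0.18 from 2 d to 4 d in ΔlaeA, where 101 members were higher and 5 lower.

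Replicate numbers did not pair the libraries, with correlations of their deviations between -0.05 and 0.10 in the 5 tested comparisons. With the replicate block 162 members were higher and 7 lower from 2 d to 6 d in ΔlaeA, 112 and 4 from 2 d to 4 d, 133 and 13 from 4 d to 6 d, 21 and 119 against WT at 4 d, and 13 and 50 from glucose to 2 d. For WT at 6 d against 2 d (correlation -0.13) 1284 genes were higher and 1025 lower without a block, 1281 and 1025 with it, and 1283 and 1026 with crossed numbers.

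Of 1089 alternative values for single named genes, 38 lost their call and none changed its sign past the threshold. Groups of 2 libraries limit every p, and at 3 counts or fewer only ratios with wide intervals can be given.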
